A study of Homo sapiens with 12 samples.

Results

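The heat shock proteins and molecular chaperones were followed in cells labelled HepG2, a human hepatocellular carcinoma line, on arrays read in 1 colour with Cy5. Of the 12 arrays, 3 came from control cells, named Mock in the labels, and 3 each from cells given 25 µM glycyrrhizin, a saponin of liquorice root, silymarin, a flavonolignan extract of milk thistle, or ursodeoxycholic acid, a hydrophilic bile acid. All cells were grown in DMEM with fetal bovine serum, and neither an exposure time nor a vehicle for the control is named in the labels. Whether replicate arrays came from cultures grown apart is not in the labels, so each p-value reflects only the array-to-array spread, possibly a technical one. Members were taken by gene symbol: the HSPA to HSPH families, HSP90, the J-domain genes DNAJA, DNAJB and DNAJC, the subunits of TRiC (TCP1 and the CCT genes), the prefoldins, HSF1, HSF2, HYOU1, CALR and CANX. The rule found 80 probes of 69 genes, out of 13881 genes measured. In the cytosol and nucleus work 44 of them, in the endoplasmic reticulum (ER) 13 and in mitochondria 8. The heat shock factors HSF1 and HSF2 are regulators. The rule also took in HSPG2, which encodes the matrix proteoglycan perlecan, and the HSP90 pseudogene HSP90AB2P, so 67 members were chaperones or their regulators. HSPA1A, HSPA1B, HSP90AA1, HSP90AB1, DNAJA1 and DNAJB1, the inducible and the most studied cytosolic genes of these families, were not analysed here.

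Chaperones bind proteins that are not yet folded or have lost their fold. HSP70 proteins clasp short exposed stretches in a cycle driven by ATP, J-domain proteins bring them clients and start ATP hydrolysis, and HSP110 proteins release the nucleotide. TRiC, a ring of 8 kinds of subunit, encloses actin and tubulin handed on by prefoldin. In the ER, HSPA5 (BiP), HSP90B1 (GRP94) and the lectin chaperones calnexin and calreticulin fold secreted proteins, of which hepatocytes make large amounts. HSF1 induces the cytosolic genes when misfolded protein accumulates, and the unfolded protein response does so for the ER.

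No member passed the threshold in any of the 7 comparisons made. With limma, Benjamini-Hochberg adjustment over all 13881 genes and a threshold of 0.05, 0 of 69 members passed with glycyrrhizin, where 0.0072% of all genes did, and 0 of 69 with silymarin, ursodeoxycholic acid or the mean of the 3 agents, where the share of all genes was 0% each time. Before adjustment, 4 members lay at a p under 0.05 with glycyrrhizin (5.8%, against 5.71% of all genes), 1 with silymarin (1.45%, against 5.24%), 2 with ursodeoxycholic acid (2.9%, against 5.55%) and 2 for the mean of the agents (2.9%, against 4.56%). These shares were near that of all genes or below it.

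The median log2 difference from control over the 69 members was −0.03 with glycyrrhizin, 0.07 with silymarin and 0.04 with ursodeoxycholic acid, beside 0.02 over all genes in each case. Members above control numbered 33, 39 and 37 of 69 in that order. Single members ran from −1.19 to 1.08 with glycyrrhizin, from −0.80 to 1.58 with silymarin and from −1.06 to 0.80 with ursodeoxycholic acid. Their median size without the sign was 0.23, 0.23 and 0.29, beside 0.23, 0.24 and 0.25 over all genes. The members were thus spread about control as widely as other genes were. Groups that did not overlap, with all 3 treated arrays above or all 3 below the control arrays, were found for 7 members with each agent, or 10.1%, against 12.7%, 10.8% and 9.5% of all genes. Only total RNA was measured, so fewer cells of one kind and less RNA per cell cannot be told apart.

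**Figure D1:**
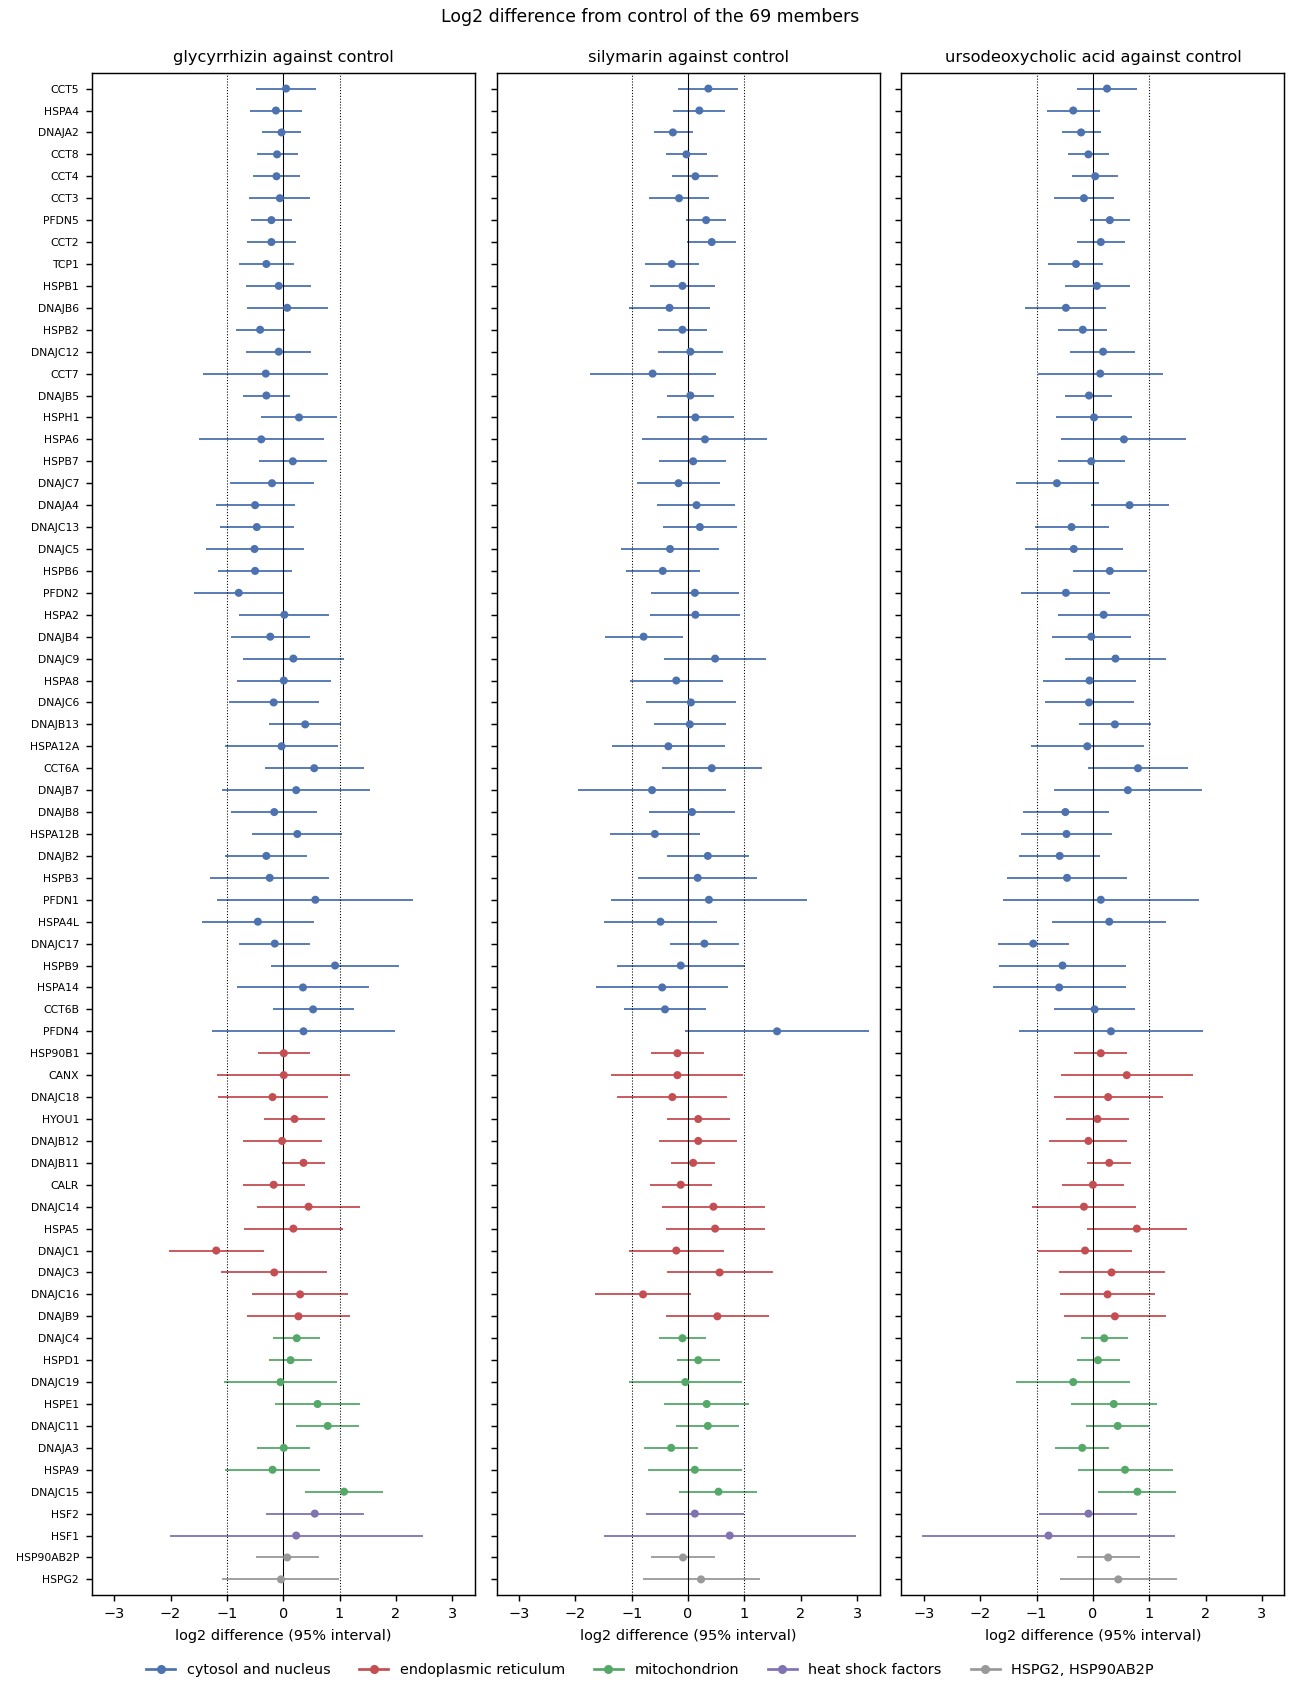
Log2 difference from control (horizontal axis, log2 units) of each of the 69 members with its 95% interval from limma, 1 panel per agent, coloured by compartment and ordered by brightness within it. Dotted lines mark a 2-fold difference either way. The intervals are short for the bright CCT genes at the top and long for HSF1, PFDN1 and PFDN4.

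How far a difference can be bounded depended on the member. The 95% interval of the difference from control lay inside 2-fold for 32 of 69 members with glycyrrhizin (46.4%, against 48.5% of all genes), 36 with silymarin (52.2%, against 48.9%) and 33 with ursodeoxycholic acid (47.8%, against 47.9%). Among the 40 members brighter than the median gene the counts were 26 (65%, against 73.1% of such genes), 29 (72.5%, against 74.2%) and 26 (65%, against 72.7%). For 26 members it lay inside 2-fold with all 3 agents, and 24 of those were brighter than the median gene. They included CCT2, CCT3, CCT4, CCT5, CCT8 and TCP1 of TRiC, HSPD1 of mitochondria, HSP90B1, HYOU1 and CALR of the ER, and HSPH1 and HSPB1 of the cytosol. CCT5 and HSPA4 reached 15.94 and 15.88 on the log2 scale, close to the highest deposited intensity of 65221, and whether such values were saturated was not tested. For 27 members it lay inside 2-fold with no agent, and 9 of those were brighter than the median gene. HSPA5, CANX, HSPE1, DNAJB9 and HSF1 were among these, so a 2-fold difference of these 5 could not be bounded at this spread.

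**Figure D2:**
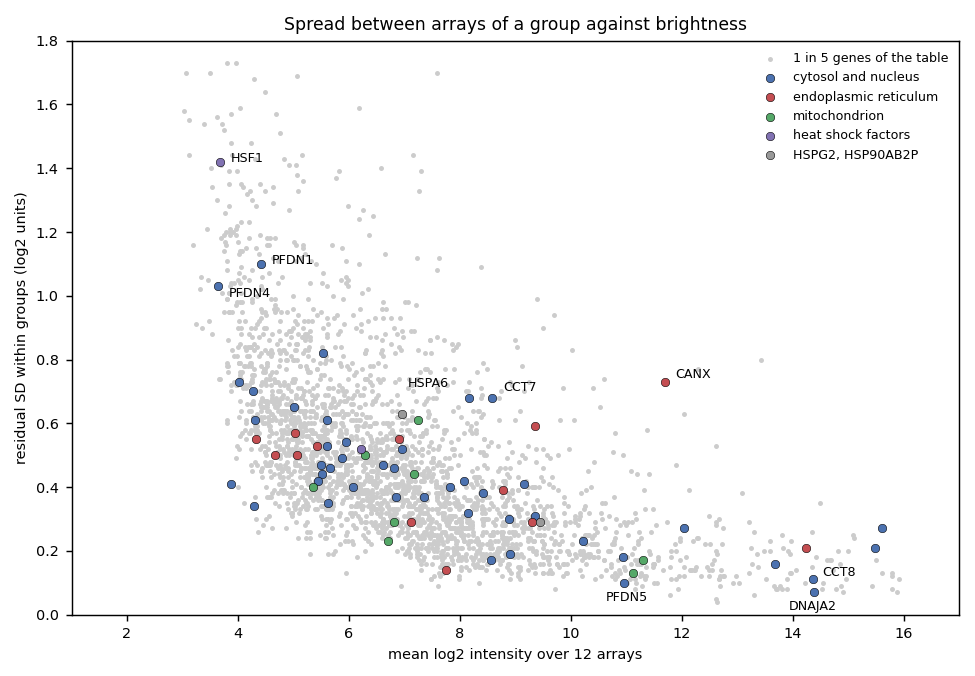
Residual SD between arrays of a group (vertical axis, log2 units) against mean log2 intensity over the 12 arrays (horizontal axis), with members coloured by compartment and 1 in 5 genes of the table in grey. The spread is widest among dim probes. HSF1 has the largest SD among the members at 1.42 and DNAJA2 the smallest at 0.07, while CANX at 0.73 is wide for a bright probe.

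Arrays were alike across groups. The median r across genes, themselves no independent replicates, was 0.945 for arrays of 1 group and 0.946 between groups. Ursodeoxycholic acid replicate 1 (median r with the others 0.923) and silymarin replicate 2 (0.925) stood apart from the other 10, at 0.938 to 0.95. The counts of members inside 2-fold were 35, 37 and 31 without the first and 36, 33 and 35 without the second, in the order glycyrrhizin, silymarin and ursodeoxycholic acid. Hepatocyte markers were not bright: 9 of 12 were measured, at percentiles 21.2 to 81.9 of all genes. Of 10 neuroblast markers 8 were measured, at 31 to 97, with TH, STMN2 and ISL1 at 97, 94 and 90.5 and CHGA and CHGB at 54.2 and 31. The mean of the hepatocyte markers ran from 6.88 to 7.05 on control arrays, 6.68 to 6.91 with glycyrrhizin, 6.79 to 6.97 with silymarin and 6.72 to 7.14 with ursodeoxycholic acid, and that of the neuroblast markers from 8.74 to 9.06, 8.67 to 9.24, 8.82 to 8.88 and 8.83 to 9.19. Leukocyte, endothelial and fibroblast markers had median percentiles of 40.2, 70.5 and 42.4, beside 51.7 for the hepatocyte and 81.6 for the neuroblast markers. Bright markers were found there too, with CD14, CDH5 and COL1A1 at 89.5, 87.7 and 90.4. Detection calls were not used here, a dim probe cannot be told from background, and what these marker levels have to do with the members was not tested.

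Among the families with several members, TRiC had the highest median rank. Of 9 subunit genes 6 ranked in the top 10% of all genes, and the median percentile was 93.5, against 32.4 for the 10 genes named HSPA and 54.3 for all members. A rank sets different probes side by side, so it does not tell which transcript is more abundant. Nor does a high rank ensure a narrow spread: CCT7, at percentile 78.7, had a residual SD of 0.68. CCT8, 1 of the ring's subunits, lay at 14.27, 14.41 and 14.59 in control, 14.22, 14.44 and 14.27 with glycyrrhizin, 14.38, 14.33 and 14.47 with silymarin and 14.31, 14.39 and 14.32 with ursodeoxycholic acid. All 12 arrays lay between 14.22 and 14.59, and the groups overlapped. At this brighter probe the difference from control was bounded by −0.47 to 0.26 with glycyrrhizin, −0.39 to 0.34 with silymarin and −0.45 to 0.28 with ursodeoxycholic acid (95% intervals). The other CCT8 probe, dimmer by 2.38, gave −0.19, 0.42 and 0.06 in the same order. With silymarin it thus lay outside that interval, so the bounds hold for 1 probe. CCT4 was a little wider, with intervals of −0.53 to 0.29, −0.28 to 0.54 and −0.37 to 0.45.

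CCT2, another ring subunit, read 10.79, 10.66 and 11.07 in control, 10.68, 10.86 and 10.36 with glycyrrhizin, 11.30, 11.30 and 11.16 with silymarin and 10.95, 11.13 and 10.86 with ursodeoxycholic acid. Silymarin lay above control on 3 of 3 arrays, and the other agents overlapped control. The difference from control was 0.42 with silymarin (SE 0.20, adjusted p = 0.931 in limma), or 1.33-fold, and did not pass. The TCP1 transcript, for the subunit that gave the complex its name, was at 10.23, 10.52 and 10.54 in control, 10.34, 10.30 and 9.77 with glycyrrhizin, 10.34, 10.28 and 9.82 with silymarin and 10.16, 10.11 and 10.12 with ursodeoxycholic acid. All 3 ursodeoxycholic acid arrays lay just under the lowest control array, while the other agents overlapped control. TCP1 averaged −0.30 against control over the 3 agents (SE 0.18, limma adjusted p = 0.997), with 5 of 9 treated arrays below every control array.

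The copies of the sixth subunit were dim. CCT6A, the widely expressed copy, gave 5.73, 5.18 and 4.60 in control, 5.01, 6.18 and 5.97 with glycyrrhizin, 6.07, 5.72 and 5.00 with silymarin and 6.31, 5.73 and 5.86 with ursodeoxycholic acid. Ursodeoxycholic acid was above control on 2 of 3 arrays, and all groups overlapped. CCT6A differed from control by 0.80 with that agent (SE 0.40, limma adjusted p = 0.895) and by 0.59 for the mean of the agents (SE 0.33, adjusted p = 0.997). Without control replicate 3, the lowest array, these were 0.51 and 0.31. CCT6B, the copy known from testis, gave 4.25, 3.97 and 3.32 in control, 4.62, 4.24 and 4.25 with glycyrrhizin, 3.01, 4.11 and 3.18 with silymarin and 4.11, 3.87 and 3.63 with ursodeoxycholic acid. Its probe ranked at percentile 1.72, and glycyrrhizin arrays lay above all silymarin arrays. Over the family, 3, 4 and 6 of 9 genes were above control with glycyrrhizin, silymarin and ursodeoxycholic acid, with medians of −0.11, −0.03 and 0.04.

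Prefoldin is a complex of 6 subunits that passes newly made actin and tubulin to TRiC, and 4 of its genes, named PFDN, are members. VBP1, its subunit 3, was measured too but has another name and was counted among the co-chaperones, with differences from control of −0.01, 0.31 and 0.15 with glycyrrhizin, silymarin and ursodeoxycholic acid. PFDN5 (percentile 93.6) was the member with the second smallest residual SD, 0.10. It read 10.88, 10.74 and 10.92 in control, 10.63, 10.78 and 10.51 with glycyrrhizin, 11.17, 11.19 and 11.13 with silymarin and 11.27, 11.09 and 11.09 with ursodeoxycholic acid. Silymarin and ursodeoxycholic acid lay above control on all 3 arrays each, and glycyrrhizin overlapped the lowest control array. The difference from control was 0.32 with silymarin (SE 0.16, limma adjusted p = 0.932), a 1.25-fold difference that did not pass.

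PFDN2, another subunit, lay at 6.90, 7.09 and 7.30 in control, 6.59, 6.62 and 5.71 with glycyrrhizin, 6.75, 7.92 and 7.0 with silymarin and 6.83, 6.88 and 6.16 with ursodeoxycholic acid. The 3 glycyrrhizin and the 3 ursodeoxycholic acid arrays all lay below the lowest control array, and silymarin overlapped control. With glycyrrhizin it was 1.73-fold below control (log2 difference −0.79, SE 0.36, limma adjusted p = 0.866), and by −0.50 on the log2 scale without glycyrrhizin replicate 3. PFDN4 lay near the bottom of the table, at percentile 0.684, with 3.82, 3.32 and 2.09 in control, 4.44, 3.22 and 2.64 with glycyrrhizin, 4.52, 4.82 and 4.63 with silymarin and 4.11, 4.52 and 1.56 with ursodeoxycholic acid. Silymarin was above every control array, and the other agents overlapped control. Its difference of 1.58 with silymarin had an SE of 0.74 (limma adjusted p = 0.931), and the gene's other probe gave −0.81. PFDN1 ranked at percentile 7.07 with a residual SD of 1.10. Of these 4 PFDN genes, 4 were above control with silymarin (median 0.34), 2 with glycyrrhizin and 3 with ursodeoxycholic acid.

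Of the genes named HSPA, 2 of 10 were brighter than the median gene. HSPA4, which by function belongs with the HSP110 nucleotide exchange factors, had the brightest, at percentile 99.7. Its values were 15.71, 15.27 and 15.66 in control, 15.12, 15.47 and 15.66 with glycyrrhizin, 15.83, 15.88 and 15.54 with silymarin and 15.11, 15.32 and 15.18 with ursodeoxycholic acid. On average ursodeoxycholic acid was lowest and silymarin highest, and both overlapped control. HSPH1, the HSP110 of the cytosol, had 8.51, 8.57 and 7.85 in control, 8.07, 8.85 and 8.85 with glycyrrhizin, 8.50, 8.31 and 8.50 with silymarin and 8.05, 8.85 and 8.07 with ursodeoxycholic acid. Every group of HSPH1 overlapped every other, and the intervals of its differences ran from −0.66 at the lowest to 0.96 at the highest.

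HSPA8, the constitutive HSC70 that uncoats clathrin vesicles and folds new proteins, is known as an abundant transcript in most cells. Here its brighter probe ranked at percentile 34.9. It read 6.41, 5.80 and 5.64 in control, 5.87, 6.14 and 5.86 with glycyrrhizin, 6.63, 5.22 and 5.37 with silymarin and 5.45, 6.27 and 5.94 with ursodeoxycholic acid. The groups overlapped throughout. Its other probe was dimmer by 1.14 log2 units and correlated with the first at r = −0.44 over the 12 arrays, a description of 2 probes on shared arrays. Whether either reads the HSPA8 transcript was not tested.

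HSPA12B, a distant relative of HSP70 known from endothelium, had 5.71, 6.23 and 5.15 in control, 6.31, 5.89 and 5.64 with glycyrrhizin, 5.19, 4.90 and 5.24 with silymarin and 4.45, 5.71 and 5.53 with ursodeoxycholic acid. Its glycyrrhizin arrays lay above all silymarin arrays, and control spanned most of both. The remaining cytosolic genes of the group were HSPA6, the strictly heat-inducible HSP70, at percentile 73.8 with glycyrrhizin replicate 3 at 6.31 and all other arrays between 7.26 and 8.69, HSPA2 at 48.3, HSPA12A at 29.9, HSPA4L at 5.58 and HSPA14 at 2.73. Whether the HSPA6 probe reads that gene's transcript was not tested. Over all 10 genes 5 were above control with each agent, with medians of −0.01, −0.04 and 0.06.

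The small heat shock proteins hold unfolding proteins without ATP. HSPB1 (HSP27), the widespread one, was at 9.47, 9.21 and 9.44 in control, 9.69, 9.14 and 9.06 with glycyrrhizin, 9.21, 9.14 and 9.45 with silymarin and 9.55, 8.94 and 9.85 with ursodeoxycholic acid. The groups overlapped, and the intervals of its 3 differences lay between −0.68 and 0.65. HSPB2, better known from muscle, was at 8.97, 9.04 and 9.19 in control, 8.80, 8.62 and 8.56 with glycyrrhizin, 9.07, 9.14 and 8.69 with silymarin and 9.13, 8.69 and 8.84 with ursodeoxycholic acid. All glycyrrhizin arrays lay below the lowest control array, and the other agents overlapped control. The difference was −0.41 (SE 0.20, limma adjusted p = 0.88), and −0.23 for the mean of the agents (SE 0.16, adjusted p = 0.997).

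HSPB6 (HSP20) gave 7.42, 6.94 and 6.65 in control, 6.60, 6.13 and 6.76 with glycyrrhizin, 7.03, 6.14 and 6.50 with silymarin and 7.20, 7.10 and 7.63 with ursodeoxycholic acid. Ursodeoxycholic acid lay above all silymarin and all glycyrrhizin arrays and overlapped control. HSPB9, known from testis, gave 4.82, 3.48 and 4.31 in control, 5.19, 5.15 and 5.04 with glycyrrhizin, 4.20, 4.22 and 3.82 with silymarin and 4.79, 3.79 and 2.42 with ursodeoxycholic acid. Its glycyrrhizin arrays lay close together above every control, silymarin and ursodeoxycholic acid array, at a dim probe of percentile 5.15. HSPB3 and HSPB7 ranked at percentiles 17.8 and 73.5, and their groups overlapped control with each agent. Of the 6 genes 2 were above control with each agent, with medians of −0.16, −0.10 and −0.10.

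J-domain proteins were the largest group, with 29 genes, 16 of them in the cytosol and nucleus. DNAJA2, a co-chaperone of HSC70, had the smallest residual SD of all members, 0.07. Its arrays read 14.38, 14.65 and 14.50 in control, 14.46, 14.52 and 14.46 with glycyrrhizin, 14.22, 14.28 and 14.23 with silymarin and 14.28, 14.36 and 14.27 with ursodeoxycholic acid. All silymarin arrays and all ursodeoxycholic acid arrays lay below the lowest control array, the nearest by a narrow margin, and glycyrrhizin overlapped control. The difference with silymarin was −0.27 (SE 0.16, limma adjusted p = 0.94), or 1.21-fold lower. Its SE fell to 0.09 where the spread was allowed to depend on brightness, with an adjusted p of 0.639, so it did not pass there either.

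DNAJA4, another HSP70 co-chaperone, was at 7.61, 7.69 and 7.93 in control, 7.35, 7.85 and 6.53 with glycyrrhizin, 7.78, 7.70 and 8.19 with silymarin and 8.39, 8.12 and 8.68 with ursodeoxycholic acid. Ursodeoxycholic acid was above every control and every glycyrrhizin array, and glycyrrhizin replicate 3 was the lowest of the 12. It differed from control by 0.65 with ursodeoxycholic acid (SE 0.32, limma adjusted p = 0.895), or 1.57-fold. DNAJB4, a partner of HSP70 also called HLJ1, was at 6.55, 6.53 and 5.92 in control, 5.56, 6.22 and 6.53 with glycyrrhizin, 6.07, 5.40 and 5.18 with silymarin and 6.06, 6.43 and 6.43 with ursodeoxycholic acid. Silymarin replicates 2 and 3 lay under the other arrays, and replicate 1 overlapped control. The difference with silymarin was −0.79 (SE 0.32, limma adjusted p = 0.931).

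DNAJC17, a nuclear J-domain protein with an RNA-binding domain, had the lowest p of any member in a comparison with control in the main fit. It read 4.40, 4.61 and 4.52 in control, 4.44, 4.81 and 3.83 with glycyrrhizin, 4.72, 4.74 and 4.95 with silymarin and 3.92, 3.03 and 3.42 with ursodeoxycholic acid. The ursodeoxycholic acid arrays were the lowest but for glycyrrhizin replicate 3, which lay below ursodeoxycholic acid replicate 1, and silymarin lay just above control. The gene was 2.08-fold below control with ursodeoxycholic acid (log2 difference −1.06, SE 0.28, limma adjusted p = 0.633), at a probe of percentile 5.34. Where the spread was allowed to depend on brightness, DNAJA2, HSPA4 and PFDN5 had smaller p-values than DNAJC17 with that agent. DNAJC7, which binds HSP70 and HSP90 through TPR repeats, was at 7.88, 8.36 and 8.75 in control, 8.41, 8.21 and 7.78 with glycyrrhizin, 8.12, 7.93 and 8.44 with silymarin and 7.37, 7.33 and 8.39 with ursodeoxycholic acid. Ursodeoxycholic acid replicates 1 and 2 were the lowest, and replicate 3 lay among control. It differed by −0.64 (SE 0.33, limma adjusted p = 0.895), and by −0.98 without replicate 3.

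DNAJB2 (HSJ1), which delivers HSP70 clients to the proteasome, was at 5.29, 5.83 and 5.60 in control, 5.24, 5.40 and 5.18 with glycyrrhizin, 6.24, 5.96 and 5.59 with silymarin and 5.27, 4.18 and 5.50 with ursodeoxycholic acid. Ursodeoxycholic acid replicate 2 was lowest at 4.18, and all silymarin arrays lay above all ursodeoxycholic acid arrays. Its difference from control with ursodeoxycholic acid was −0.59 (SE 0.33, limma adjusted p = 0.895), and leaving out single arrays moved that between −0.85 and −0.19, the latter without ursodeoxycholic acid replicate 2. The 10 other cytosolic J-domain genes, DNAJB5, DNAJB6, DNAJB7, DNAJB8, DNAJB13, DNAJC5, DNAJC6, DNAJC9, DNAJC12 and DNAJC13, ranked between percentiles 28.2 and 84.4. Among these DNAJC9, a histone chaperone, was the 1 gene whose silymarin arrays (6.09, 6.09 and 6.28) all lay above control (6.07, 5.22 and 5.73).

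Heat shock factors bind repeats of GAA and TTC. In the 250 bases before the transcription start, the pair GAANNTTC, which reads the same on both strands, was found in 5.85% of 27305 RefSeq promoters and in 7 of the 61 members that had one (DNAJB6, DNAJB7, HSPA6, HSPA8, HSPB1, HSPB6 and TCP1), all in the cytosol group. The run of 3 units, GAANNTTCNNGAA or TTCNNGAANNTTC, which contains the pair, was in 0.439% of promoters and in 3 members. Those 3 are shown to let the element be read in place, cut to the bases around the matches (RefSeq, GRCh38.p14), 5′ to 3′ on the strand of the gene, with every match of either motif in capitals. HSPA8 lies on the minus strand at chr11:123062159-123062386, DNAJB6 on the plus strand at chr7:157336853-157336905 and HSPA6 on the plus strand at chr1:161524340-161524498.
HSPA8: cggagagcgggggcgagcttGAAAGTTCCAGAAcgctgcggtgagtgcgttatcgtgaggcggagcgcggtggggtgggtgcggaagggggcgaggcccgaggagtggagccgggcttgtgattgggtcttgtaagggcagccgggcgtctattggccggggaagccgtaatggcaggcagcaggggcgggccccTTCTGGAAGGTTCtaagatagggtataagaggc
DNAJB6: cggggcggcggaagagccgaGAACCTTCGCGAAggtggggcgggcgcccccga
HSPA6: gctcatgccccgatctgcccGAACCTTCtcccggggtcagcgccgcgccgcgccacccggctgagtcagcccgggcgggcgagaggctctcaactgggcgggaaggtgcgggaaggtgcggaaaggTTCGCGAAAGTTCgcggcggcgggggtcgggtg

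A difference between members with and without the element was not tested. For the 3 genes with the longer element the median difference from control was 0.01 with glycyrrhizin, −0.21 with silymarin and −0.06 with ursodeoxycholic acid, beside −0.04, 0.09 and 0.09 over the 58 other members with a promoter. For the 7 with the pair the medians were −0.08, −0.29 and 0.07, beside −0.03, 0.12 and 0.09 over the other 54. Above control were 3, 1 and 4 of these 7, and 25, 35 and 31 of the 54. A match is a description of letters and not a measured site.

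The factors themselves were dimmer than the median gene, HSF1 far below it at percentile 0.807 and HSF2 at 40.9. HSF1, the main heat shock factor, was at 3.06, 2.64 and 5.21 in control, 4.37, 2.72 and 4.52 with glycyrrhizin, 5.49, 3.22 and 4.42 with silymarin and 1.12, 5.01 and 2.42 with ursodeoxycholic acid. It had the widest spread of the members, 1.42, and its ursodeoxycholic acid arrays alone ran from 1.12 to 5.01. HSF2, which acts in development and beside HSF1, was at 6.09, 6.10 and 5.98 in control, 6.20, 7.22 and 6.44 with glycyrrhizin, 5.98, 6.59 and 5.95 with silymarin and 5.45, 6.91 and 5.59 with ursodeoxycholic acid. Its glycyrrhizin arrays lay above all control arrays, and the other agents overlapped control.

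In the ER, HSPA5 (BiP) is the HSP70 that also restrains the sensors of the unfolded protein response. Its single probe ranked at percentile 26.3, though BiP is known as an abundant protein of secreting cells, and whether the probe reads the HSPA5 transcript was not tested. It read 5.44, 4.24 and 5.49 in control, 5.10, 5.02 and 5.60 with glycyrrhizin, 6.04, 5.22 and 5.37 with silymarin and 6.40, 5.27 and 5.86 with ursodeoxycholic acid. Control replicate 2 was the lowest array and ursodeoxycholic acid replicate 1 the highest, and every group overlapped control. The intervals of its differences ran from −0.70 to 1.07 with glycyrrhizin, −0.40 to 1.37 with silymarin and −0.10 to 1.67 with ursodeoxycholic acid.

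HSP90B1 (GRP94), the ER's HSP90, had a bright probe at percentile 99. It read 14.23, 14.17 and 14.36 in control, 14.31, 14.23 and 14.26 with glycyrrhizin, 14.34, 14.22 and 13.63 with silymarin and 14.40, 14.22 and 14.55 with ursodeoxycholic acid. Of the 12 arrays 11 lay between 14.17 and 14.55, and silymarin replicate 3 lay at 13.63. The intervals against control were −0.45 to 0.48, −0.65 to 0.28 and −0.33 to 0.60 in the same order. HYOU1, the ER's HSP110 and a nucleotide exchange factor for BiP, gave 8.87, 9.51 and 9.15 in control, 9.36, 9.56 and 9.20 with glycyrrhizin, 9.34, 9.62 and 9.12 with silymarin and 9.63, 9.25 and 8.89 with ursodeoxycholic acid. The groups overlapped, with intervals between −0.47 and 0.75.

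CANX (calnexin), the membrane-bound lectin chaperone of glycoproteins, was at 12.19, 11.14 and 11.43 in control, 11.81, 10.53 and 12.45 with glycyrrhizin, 11.60, 10.47 and 12.11 with silymarin and 11.87, 12.09 and 12.62 with ursodeoxycholic acid. Replicate 2 was the lowest of its group in control, glycyrrhizin and silymarin cells, and all groups overlapped. In the same 3 groups replicate 2 was also lowest for CCT7, DNAJB7, DNAJC18, HSPA5 and HSF1, in all 6 of 69 members (8.7%), a pattern held by 4.68% of all genes. The relation of that pattern to how arrays were made was not tested. CALR (calreticulin), the soluble lectin chaperone, was at 7.03, 7.05 and 7.45 in control, 6.89, 7.23 and 6.91 with glycyrrhizin, 6.81, 7.53 and 6.82 with silymarin and 7.31, 6.88 and 7.35 with ursodeoxycholic acid. Its groups overlapped, with intervals between −0.72 and 0.55.

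Among ER J-domain proteins, DNAJB9 (ERdj4) and DNAJC3 (P58IPK) are classical targets of the unfolded protein response. DNAJB9 lay at 4.25, 4.84 and 3.01 in control, 3.88, 4.24 and 4.79 with glycyrrhizin, 4.78, 4.40 and 4.47 with silymarin and 4.20, 4.74 and 4.35 with ursodeoxycholic acid. The probe was dim, at percentile 6.02, and control replicate 3 was the lowest array. DNAJC3 lay at 4.01, 5.22 and 5.29 in control, 4.79, 4.64 and 4.58 with glycyrrhizin, 5.24, 5.87 and 5.10 with silymarin and 6.03, 4.52 and 4.95 with ursodeoxycholic acid, with control replicate 1 the lowest. The groups of both genes overlapped control with each agent.

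DNAJC1 (ERdj1), which recruits BiP to ribosomes at the ER membrane, was the 1 ER member at an unadjusted p under 0.05 with any agent. Its values were 6.11, 4.61 and 5.60 in control, 4.30, 3.94 and 4.52 with glycyrrhizin, 5.14, 5.82 and 4.73 with silymarin and 5.18, 5.40 and 5.32 with ursodeoxycholic acid. All glycyrrhizin arrays lay below every other array, the nearest being control replicate 2. Glycyrrhizin was 2.28-fold below control (log2 difference −1.19, SE 0.38, limma adjusted p = 0.683). The difference ran from −1.60 to −0.85 when single arrays were left out, and for the mean of the agents it was −0.51 (SE 0.31, adjusted p = 0.997), or −0.18 without control replicate 1 and −0.93 without control replicate 2.

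DNAJB11 (ERdj3), a secreted co-chaperone of BiP, was at 7.46, 7.42 and 7.79 in control, 7.74, 7.99 and 8.02 with glycyrrhizin, 7.60, 7.65 and 7.68 with silymarin and 7.88, 7.94 and 7.70 with ursodeoxycholic acid. On 2 of 3 arrays glycyrrhizin was above control. It differed by 0.36 (SE 0.18, limma adjusted p = 0.883), while its other probe, dimmer by 0.87, gave −0.52. DNAJC16 (ERdj8), a protein of the ER membrane, was at 4.60, 4.54 and 5.06 in control, 5.19, 5.43 and 4.47 with glycyrrhizin, 4.46, 3.01 and 4.30 with silymarin and 5.22, 4.74 and 5.01 with ursodeoxycholic acid. Silymarin lay below every control array, with replicate 2 far under the rest. The difference of −0.80 (SE 0.39, limma adjusted p = 0.931) ranged from −1.07 to −0.35 when single arrays were left out, the latter without silymarin replicate 2. DNAJB12, DNAJC14 and DNAJC18 ranked at percentiles 80.7, 53.6 and 85.8, and their groups overlapped control with each agent.

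The ER stress element, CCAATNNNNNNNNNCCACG or on the other strand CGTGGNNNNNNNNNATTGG, binds factors of the unfolded protein response. It was in the 250 upstream bases of 22 of 27305 RefSeq promoters (0.0806%), and 4 of these belonged to members, all of the ER group (4 of 12 with a promoter): CALR, CANX, HSP90B1 with 2 copies, and HSPA5. They are shown because they share an element that no cytosolic or mitochondrial member had there, 5′ to 3′ on the strand of the gene with the element in capitals (RefSeq, GRCh38.p14). HSPA5 lies on the minus strand at chr9:125241371-125241429, the others on the plus strand: HSP90B1 at chr12:103930196-103930359, CALR at chr19:12938364-12938422 and CANX at chr5:179698758-179698816.
HSPA5: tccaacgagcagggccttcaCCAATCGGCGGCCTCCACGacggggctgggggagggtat
HSP90B1: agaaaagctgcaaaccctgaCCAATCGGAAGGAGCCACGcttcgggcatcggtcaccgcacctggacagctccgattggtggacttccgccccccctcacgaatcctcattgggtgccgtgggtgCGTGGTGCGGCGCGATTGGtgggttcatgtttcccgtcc
CALR: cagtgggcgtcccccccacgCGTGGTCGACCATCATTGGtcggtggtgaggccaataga
CANX: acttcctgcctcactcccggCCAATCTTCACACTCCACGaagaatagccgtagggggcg

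The 4 genes differed among themselves. Their median difference from control was 0.01 with glycyrrhizin, −0.16 with silymarin and 0.37 with ursodeoxycholic acid, beside −0.04, 0.09 and 0.07 over the 57 other members with a promoter. With ursodeoxycholic acid HSPA5 and CANX gave the higher values of the 4, 0.78 and 0.60, and HSP90B1 gave 0.14. CALR averaged 7.18 in control and with that agent. None of these 4 differences passed.

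In mitochondria HSPD1 (HSP60) forms the folding chamber and HSPE1 (HSP10) its lid. HSPD1 was narrow, at 11.07, 11.00 and 10.97 in control, 11.07, 11.32 and 11.05 with glycyrrhizin, 11.28, 11.23 and 11.07 with silymarin and 11.30, 11.05 and 10.97 with ursodeoxycholic acid. The groups overlapped, and the intervals lay between −0.29 and 0.56. HSPE1 was at 7.46, 6.10 and 7.01 in control, 7.78, 7.02 and 7.59 with glycyrrhizin, 7.47, 7.12 and 6.98 with silymarin and 6.91, 7.48 and 7.29 with ursodeoxycholic acid. Control replicate 2 was the lowest array, and every treated group overlapped control.

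HSPA9 (mortalin), the HSP70 that pulls proteins through the inner membrane, was at 6.73, 6.28 and 5.45 in control, 5.66, 6.35 and 5.88 with glycyrrhizin, 6.01, 6.39 and 6.42 with silymarin and 7.42, 6.19 and 6.56 with ursodeoxycholic acid. Ursodeoxycholic acid replicate 1 was the highest array and control replicate 3 the lowest. DNAJC11, an outer membrane protein linked to cristae, was at 6.31, 6.23 and 6.71 in control, 7.21, 7.19 and 7.20 with glycyrrhizin, 6.76, 7.19 and 6.34 with silymarin and 7.16, 6.84 and 6.55 with ursodeoxycholic acid. The glycyrrhizin arrays lay between 7.19 and 7.21, above all control arrays, and the other agents overlapped control. The difference with glycyrrhizin was 0.79 (SE 0.25, limma adjusted p = 0.683), or 1.72-fold, and 0.52 for the mean of the agents (SE 0.21, adjusted p = 0.997). The gene's other probe, dimmer by 1.87, differed by 0.01 with glycyrrhizin.

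DNAJC15 (MCJ), a J-domain protein of the import motor that also restrains respiratory complex I, had the smallest p among members for glycyrrhizin and for the mean of the agents. It read 5.14, 5.00 and 4.14 in control, 5.78, 6.07 and 5.66 with glycyrrhizin, 5.37, 4.90 and 5.61 with silymarin and 5.37, 5.27 and 6.0 with ursodeoxycholic acid. All glycyrrhizin and all ursodeoxycholic acid arrays lay above every control array, and silymarin replicate 2 overlapped control. The fitted difference was 1.08 with glycyrrhizin (SE 0.32, limma adjusted p = 0.647), 0.79 with ursodeoxycholic acid (SE 0.32, adjusted p = 0.891) and 0.80 for the mean of the agents (SE 0.26, adjusted p = 0.96), where 8 of 9 treated arrays lay above control. Without control replicate 3, the lowest array, the last 2 were 0.47 and 0.49. Its 2 probes had nearly the same mean, 5.36 and 5.28, and differed in sign with 2 of 3 agents. The second gave −0.39 with glycyrrhizin, 0.35 with silymarin and −0.27 with ursodeoxycholic acid, and the probes correlated at r = −0.19 over the 12 arrays. The remaining mitochondrial J-domain genes DNAJA3, DNAJC4 and DNAJC19 ranked at percentiles 50.2, 94.6 and 59.8 and overlapped control with each agent.

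**Figure D3:**
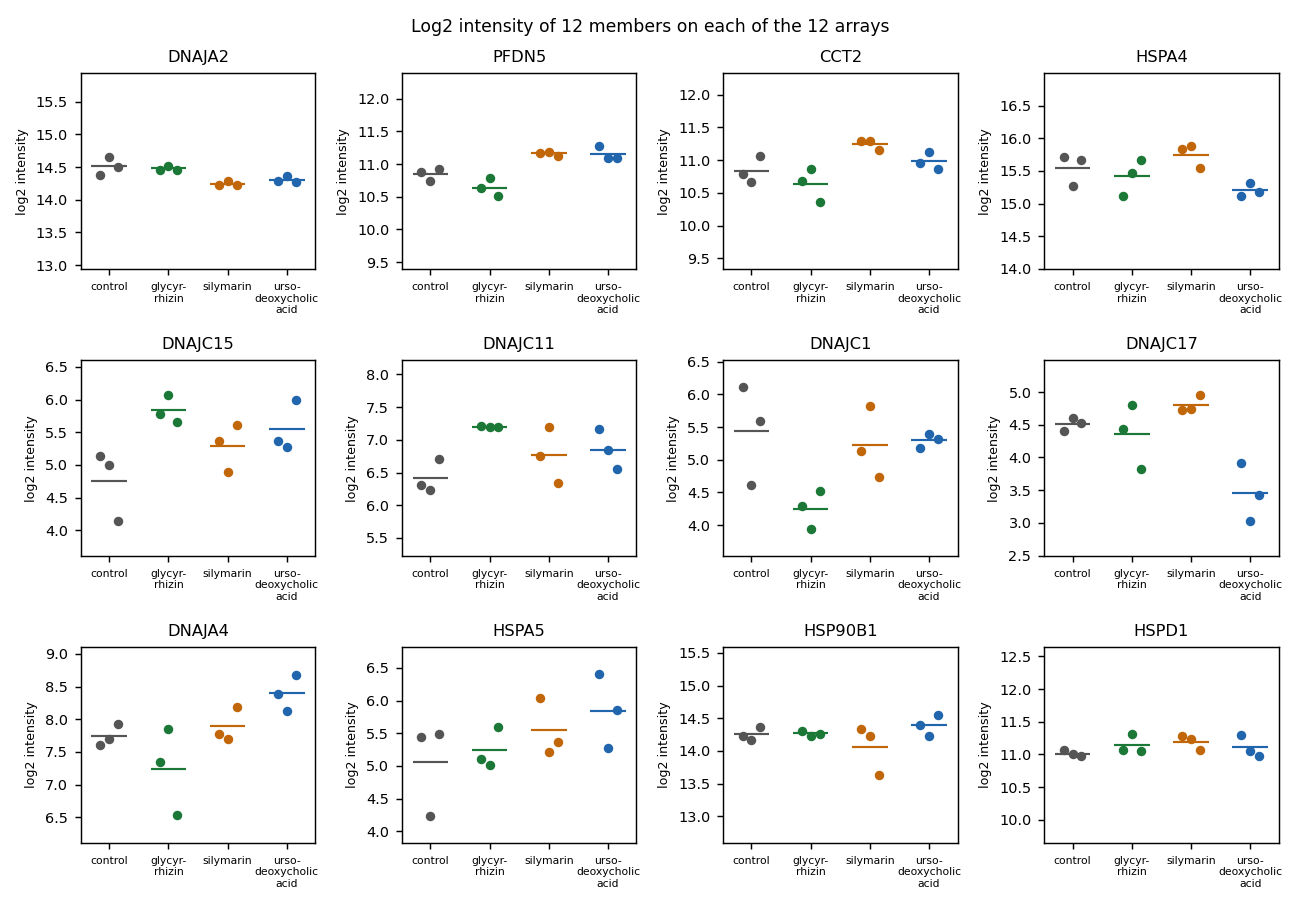
Log2 intensity (vertical axis) of 12 members on each array, by group, with points for single arrays and a bar for the mean of 3. Each vertical axis has its own range. The DNAJC17 arrays of ursodeoxycholic acid and the DNAJC1 arrays of glycyrrhizin lie below control, and HSPD1 and HSP90B1 overlap across groups.

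By compartment, the cytosolic median lay slightly below control with glycyrrhizin, and the mitochondrial median above it with each agent. The latter did not hold in every setting given below. The cytosolic median was −0.11 with glycyrrhizin (16 of 44 above control), 0.04 with silymarin (24) and −0.05 with ursodeoxycholic acid (20). In the ER it was 0.01 (8 of 13), 0.09 (7) and 0.26 (9). In mitochondria it was 0.19 (6 of 8), 0.15 (5) and 0.28 (6). All genes had a median of 0.02 each time. The medians of single arrays of 1 group had a pooled SD of 0.08 for the cytosolic, 0.14 for the ER and 0.10 for the mitochondrial genes. The mitochondrial median with silymarin ranged from −0.00 to 0.25 when single arrays were left out.

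The spread of these medians can be seen on single arrays. For the mitochondrial genes the medians of the control arrays, taken against the control mean, were 0.18, 0.09 and −0.11, those of glycyrrhizin 0.20, 0.25 and 0.35, those of silymarin 0.07, 0.18 and 0.09 and those of ursodeoxycholic acid 0.32, 0.23 and 0.17. All glycyrrhizin arrays lay above the control arrays, the nearest at 0.20 against 0.18, and the other agents overlapped control. Over all genes the glycyrrhizin arrays lay above control too, at 0.05 each against −0.01, 0.02 and 0.02, so this order was not particular to mitochondrial genes. The ER genes gave −0.09, −0.13 and 0.23 in control and 0.28, 0.01 and 0.28 with ursodeoxycholic acid, which overlap. The mitochondrial value with ursodeoxycholic acid turned to −0.05 and that with glycyrrhizin to 0.01 when genes with several probes were read from the second, and the ER value with ursodeoxycholic acid dropped to 0.11 without the dimmer 50% of probes. Leaving out single arrays moved the cytosolic value with glycyrrhizin between −0.18 and −0.02. The compartment lists were described and not tested.

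**Figure D4:**
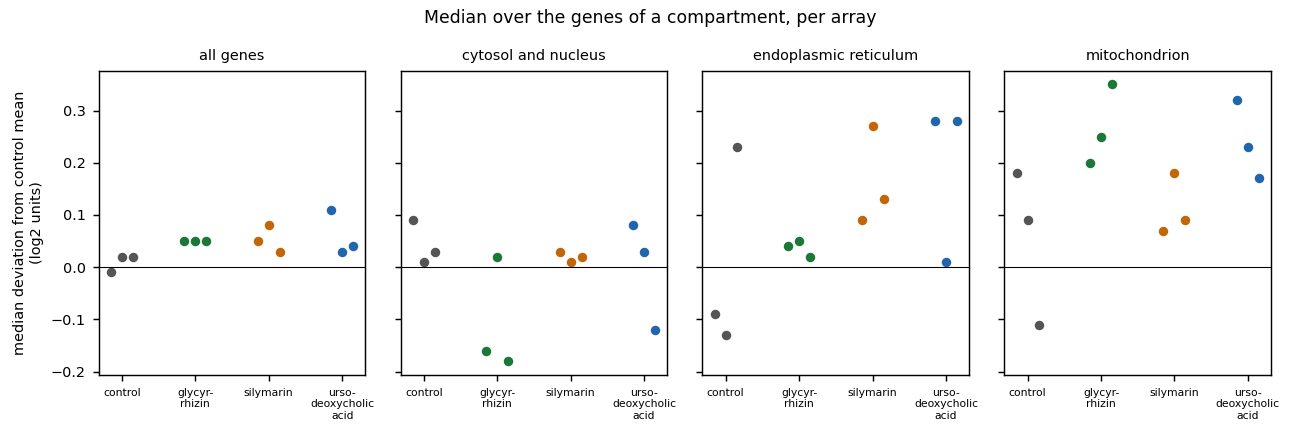
Median over the genes of a compartment of the log2 deviation from the control mean (vertical axis, log2 units), 1 point per array, for all 13881 genes and the 3 compartments. Control arrays of the ER genes spread from −0.13 to 0.23, as wide as the distance between groups.

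Members that had 2 probes show how far a value depends on the probe. There were 11 such genes, whose probes lay a median of 1.69 log2 units apart (0.02 to 3.26, 4 of them by 2 or more), beside 1.65 over the 1674 such genes of the table. Of 33 differences from control, 3 for each gene, the sign before rounding was shared by both probes in 21. CCT2 was among the genes whose probes agreed in sign with every agent, with the second at −0.05, 0.30 and 0.08. Its probes had the highest correlation of these genes over the 12 arrays, r = 0.49, while the others ran from −0.44 to 0.36. The probes of DNAJB12, at 8.77 and 8.76, agreed in sign too but gave −0.02 and −0.65 with glycyrrhizin.

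The agents were also set against each other. For glycyrrhizin against silymarin 0.0504% of all genes passed and 0 of 69 members, and 8 members lay at an unadjusted p under 0.05 (11.6%, against 9.86% of all genes). For silymarin against ursodeoxycholic acid 0.0504% of all genes passed and 0 of 69 members, and 6 lay under 0.05 (8.7%, against 8.52%). Glycyrrhizin against ursodeoxycholic acid gave 0% of all genes and 0 of 69 members past the threshold, and 6 under 0.05 (8.7%, against 5.09%). The median difference over the members was −0.01 for glycyrrhizin against silymarin, 0.01 for silymarin against ursodeoxycholic acid and −0.01 for glycyrrhizin against ursodeoxycholic acid. Between agents, the share of all genes whose arrays did not overlap was not counted. Members named for these comparisons were picked by a small p on the same arrays, so a lack of overlap is no further support.

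In glycyrrhizin against silymarin 5 members lay lower at an unadjusted p under 0.05, of prefoldin, TRiC and the J-domain group. PFDN5 was 1.44-fold lower with glycyrrhizin (log2 difference −0.53, SE 0.16, limma adjusted p = 0.27), CCT2 1.54-fold lower (−0.62, SE 0.20, adjusted p = 0.281) and PFDN2 1.89-fold lower (−0.92, SE 0.36, adjusted p = 0.404), each with no overlap of the arrays. PFDN2 gave −0.57 without silymarin replicate 2. The J-domain genes were DNAJC1, with the same limma adjusted p as PFDN2 (−0.98, SE 0.38), and DNAJC13, a protein of endosomes (−0.68, SE 0.30, adjusted p = 0.485), and neither overlapped. With the variance trend, which called 217 genes in this comparison, PFDN5 and CCT2 came to adjusted p-values of 0.0577 and 0.0698 and did not pass. On the other side were DNAJC16 (1.10, SE 0.39), CCT6B (0.94, SE 0.33) and HSPA12B (0.84, SE 0.36), all dimmer than the median gene, with limma adjusted p-values of 0.343, 0.339 and 0.482. DNAJC16 gave 0.65 without silymarin replicate 2.

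Against ursodeoxycholic acid, glycyrrhizin was lower for DNAJA4 (−1.15, SE 0.32), DNAJC1 (−1.05, SE 0.38) and PFDN5 (−0.51, SE 0.16) and higher for HSPB9 (1.46, SE 0.51), DNAJC17 (0.90, SE 0.28) and HSPA12B (0.71, SE 0.36). All 6 had a limma adjusted p of 0.854. DNAJC17 and HSPA12B overlapped on 1 array, and the other 4 did not overlap. HSPA12B was not among the 6 members counted above as under 0.05 in limma, while HSPB6 was. HSPB6 was lower with glycyrrhizin (−0.81, SE 0.30, limma adjusted p = 0.854), and its arrays did not overlap. HSPB9 gave 0.84 without ursodeoxycholic acid replicate 3, and HSPA12B 0.33 without replicate 1.

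For silymarin against ursodeoxycholic acid, DNAJC17, a dim probe at percentile 5.34, had the smallest p of any member in any comparison of the main fit. It was 2.54-fold higher with silymarin (log2 difference 1.35, SE 0.28, limma adjusted p = 0.253), with every silymarin array above every ursodeoxycholic acid array. With the variance trend in limma its unadjusted p was 0.0129, and that of HSPA4 was smaller, 0.00211. DNAJB2 (0.95, SE 0.33, adjusted p = 0.513) and HSPA4 (0.55, SE 0.21, adjusted p = 0.538) were also higher with silymarin in limma without overlap. DNAJC16 (−1.06, SE 0.39), DNAJB4 (−0.76, SE 0.32) and HSPB6 (−0.75, SE 0.30) were lower, with limma adjusted p-values of 0.526, 0.568 and 0.547, and DNAJB4 overlapped on 1 array. DNAJB2 gave 0.54 without ursodeoxycholic acid replicate 2, and DNAJC16 −0.60 without silymarin replicate 2.

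The partners of the chaperones were read from lists of their own. Of a mixed list of 32 co-chaperones and related genes, 25 were measured, and 0 passed the adjusted threshold with any agent. Besides partners of HSP70 and HSP90, the list holds HSF4, HSBP1, SERPINH1, TRAP1, CLPX and the prefoldin subunit VBP1. With glycyrrhizin 11 of 25 were above control (median −0.02). At an unadjusted p under 0.05 lay 3 of 25, against 5.71% of all genes in either direction. All 3 were lower: the HSP90-binding prolyl isomerases PPID (−1.14, SE 0.29) and FKBP4 (−0.71, SE 0.31) and the mitochondrial unfoldase CLPX (−0.85, SE 0.27), with limma adjusted p-values of 0.574, 0.84 and 0.683. With silymarin 20 of 25 were above control, with a median of 0.26 beside 0.02 over all genes. Under 0.05 lay 2 of 25, against 5.24% of all genes: the HSP90 co-chaperone PTGES3 (p23, 0.45, SE 0.18) and the HSP70 partner BAG4 (0.67, SE 0.29). STIP1 (HOP), which joins HSP70 to HSP90, gave −0.44 (SE 0.20). All 3 had a limma adjusted p of 0.931. With ursodeoxycholic acid 14 of 25 were above control (median 0.01), and 2 of 25 lay under 0.05, against 5.55% of all genes. These were the ubiquitin ligase STUB1 (CHIP, −1.0, SE 0.36, limma adjusted p = 0.879) and PPID (−0.67, SE 0.29, adjusted p = 0.893). The heat shock factor HSF4 came next (0.49, SE 0.23, limma adjusted p = 0.895).

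Of 28 genes of the unfolded protein response 27 were measured, and 0 passed. With glycyrrhizin 10 of 27 were above control (median −0.08). Before adjustment 1 of 27 lay under 0.05, against 5.71% of all genes. This lowest p belonged to EIF2AK3 (PERK), a sensor kinase of the ER membrane (−0.78, SE 0.24, limma adjusted p = 0.673). EDEM1, which sends misfolded glycoproteins to degradation (−0.65, SE 0.36), and the ER stress-inducible MANF (−0.34, SE 0.20) came next. With silymarin 15 of 27 were above (median 0.11), and 3 of 27 lay under 0.05, against 5.24% of all genes. These were the transcription factor DDIT3 (CHOP, 0.81, SE 0.28, limma adjusted p = 0.847), the ER-associated degradation gene DERL2 (0.74, SE 0.29) and MANF (0.44, SE 0.20). Ursodeoxycholic acid gave 15 above (median 0.01), with 1 of 27 under 0.05, against 5.55% of all genes. This was EDEM1 at −0.84 (SE 0.36, limma adjusted p = 0.893). The ER oxidase ERO1B at 0.88 (SE 0.46) and DERL2 at 0.54 (SE 0.29) came next. Of the partner genes named in both lists, 8 values moved by over 1.5 times without 1 array: FKBP4 to −0.42 without glycyrrhizin replicate 1, DDIT3 to 0.52 and MANF to 0.28 without control replicate 2, BAG4 to 0.43 without control replicate 1, PPID with ursodeoxycholic acid to −0.44 without its replicate 3, and HSF4, ERO1B and DERL2 to 0.30, 0.53 and 0.34 without control replicate 3.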

How the data were processed

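Total RNA of 12 arrays was read in 1 colour. The authors deposited 1 linear intensity per probe and array (1 to 65221) with no counts or detection calls. The submitters' processing notes name limma, while the scanner and background correction are not given in these sources. Of 27561 probes, 15650 had 1 symbol in the platform annotation, 0 several and 11911 none. Of the older symbols 2100 were updated and 58 ambiguous ones kept. The brightest probe stood for each of 13881 genes. On the log2 scale, limma 3.58.1 (R 4.3.3) was run with lmFit and eBayes (two-sided, 1 mean per group over all 12 arrays, 8 residual and 2.71 prior degrees of freedom), with p-values adjusted over all genes. Precision is limited by the 3 arrays per group. The fit was tested on simulated data. Members, lists and tests were chosen with earlier results of these data known. Values on every array are given for a fixed set of well-known members and, in each comparison, for the 3 members with the smallest p in each direction, and the 3 genes with the smallest p are named from the co-chaperone and unfolded protein response lists. Other members are given by rank, range or count. Promoters are RefSeq's (GRCh38.p14), found for 61 members. No interaction was fitted. Alternatives are given in the closing section.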

Additional observations from a re-analysis of the deposited data

How the results depend on the processing

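The alternatives were the replicate number as a block, quantile normalization again, the dimmer 50% of probes left out, probes averaged or the second brightest probe taken, a robust variance trend, array weights, the compared groups alone, offsets of 16 and 50, other membership rules, each array left out in turn, and, added after seeing the data, a spread estimated over all probes. With the replicate block 0 members passed, as under every other one of the 25 alternatives, in each of the 7 comparisons. Deviations of arrays with the same number correlated between −0.19 and 0.15, over 0.1 in 4 of 18 pairs. Their median was 0.02, beside −0.01 for arrays of other numbers. Whether arrays were paired by number cannot be settled from these correlations. With the spread estimated over all probes, limma called 0 genes of the table for glycyrrhizin against control in place of 1, 7 for glycyrrhizin against silymarin, and 4 for silymarin against ursodeoxycholic acid in place of 7. Of 1353 values of 60 gene differences, 42 of members and 18 of partner genes, 1346 kept their direction and side of the threshold and 7 reversed. All 7 came from the choice of probe. None of the 60 passed in the main fit, so the side of the threshold had little room to change. Genes with 1 probe keep their value under the second brightest, so the total says little about the choice of probe. Of the named differences of members with 2 probes, only those of CCT2 and, at 0.01, DNAJC11 with glycyrrhizin kept their direction with the second. With the second brightest probe DNAJC15 gave −0.39 with glycyrrhizin, −0.27 with ursodeoxycholic acid and −0.10 for the mean of the agents, DNAJC11 −0.11 for that mean, PFDN4 −0.81 with silymarin and DNAJB11 −0.52 with glycyrrhizin, or −0.08 with probes averaged. List medians moved by more than the spread of single arrays as follows. Without the dimmer 50% of probes the cytosolic median with glycyrrhizin was −0.20, the ER median with ursodeoxycholic acid 0.11, the mitochondrial one 0.15, and the members' median of glycyrrhizin against ursodeoxycholic acid −0.12. With the second probe the mitochondrial median was 0.01 with glycyrrhizin and −0.05 with ursodeoxycholic acid, and the members' median −0.04 for the mean of the agents and −0.11 for glycyrrhizin against ursodeoxycholic acid. With probes averaged those with ursodeoxycholic acid were 0.15 for mitochondria and −0.09 for glycyrrhizin against it. The ER median with ursodeoxycholic acid was 0.12 with array weights and 0.09 with an offset of 50. Leaving out single arrays moved the members' median from 0.01 to 0.10 with silymarin, 0.00 to 0.13 with ursodeoxycholic acid, −0.03 to 0.05 for the mean of the agents, −0.11 to 0.00 for glycyrrhizin against silymarin, −0.08 to 0.07 for glycyrrhizin against ursodeoxycholic acid and −0.04 to 0.03 for silymarin against ursodeoxycholic acid. It moved the cytosolic median from −0.18 to −0.02 with glycyrrhizin and the mitochondrial one from −0.00 to 0.25 with silymarin and 0.17 to 0.28 with ursodeoxycholic acid. The cause of these moves was not tested. Dim probes limit what can be bounded, since no signal over background was given.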

Other observations

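Applied to updated symbols, the membership rule would add 3 genes that the platform names by older symbols. The ER-associated HSP70 relative HSPA13 lay at 9.50, 8.97 and 9.69 in control, 8.57, 8.88 and 8.35 with glycyrrhizin, 10.09, 10.36 and 8.57 with silymarin and 9.26, 8.89 and 8.80 with ursodeoxycholic acid. All glycyrrhizin arrays lay below the control arrays (log2 difference −0.79, SE 0.41, limma adjusted p = 0.883). The mitochondrial J-domain gene DNAJC30 lay at 7.33, 8.17 and 8.50 in control, 8.67, 8.61 and 7.18 with glycyrrhizin, 8.53, 8.47 and 9.01 with silymarin and 8.85, 8.82 and 9.17 with ursodeoxycholic acid. With ursodeoxycholic acid all 3 arrays lay above control (0.95, SE 0.41, limma adjusted p = 0.893). DNAJC27, which has a small GTPase domain, differed by 0.12, 0.22 and −0.08 with the agents in the same order. None of the 3 passed.

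Both probes of HSPA8 and the single probe of HSPA5 were dimmer than the median gene, at mean log2 intensities of 5.88, 4.74 and 5.42, while the median gene lay at 6.70. The values given for these genes rest on those probes.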
